A study of Mus musculus with 24 samples.

Results

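Imprinted genes are expressed mainly or only from the copy inherited from 1 parent. The 48 described here are known mouse imprinted genes taken by gene name from a table of 51697 genes, grouped into 20 imprinted domains or single genes by where they lie. All 48 names were found. Of these, 25 are listed here as usually expressed from the paternal copy and 23 from the maternal copy. For some, such as Ube3a and Grb10, this depends on the tissue. The copy expressed in these cells was not read. The counts were not split by parental allele, so every value is the total over both copies.

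Imprinting is set by DNA methylation that is laid down in the germ line at control regions and kept through development. At the control region between Igf2 and H19, the zinc-finger protein CTCF binds the unmethylated maternal copy and blocks the enhancers that both genes share from reaching Igf2, while methylation keeps CTCF off the paternal copy. Other control regions start a noncoding RNA that silences its neighbours in cis. Many imprinted genes act on fetal growth or in the nervous system, and cultured embryonic stem (ES) cells can lose imprints with passage.

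RNA-seq was done on F123 cells, a hybrid mouse ES line, carrying a CTCF-AID degron, in which the plant hormone auxin leads to degradation of the tagged CTCF protein. All 24 libraries come from this degron line and differ in auxin and stage, 2 libraries in each of 12 groups. The ES cell groups had 0, 24, 48 or 96 h of auxin. The neural progenitor differentiation groups were harvested on days 2, 4 and 6, each with auxin and as untreated control, and washout groups were harvested 2 days after auxin was removed on day 4 or day 6. The labels do not say whether replicates came from separate cultures or clones, so p-values measure the spread between these libraries, which may be technical. No parental line without the degron and no untreated group of the same day as the day 6 washout was analysed here.

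Total counts ran from 24696374 to 72048935 per library, and the first ES replicates were the shallowest (24696374 to 29909368). ES replicates spread more than the others: the SD of the log2 ratio between the replicates of a group was 0.466 to 0.570 over all genes in ES cells, 0.258 in day 2 auxin and 0.121 to 0.146 in the other differentiation groups. Ctcf mRNA does not check the depletion, since auxin acts on the protein; it was 217 and 172 CPM (counts over the TMM-scaled library size, times 1e6) at 0 h and 211 and 269 CPM at 96 h. None of 6 ES cell markers was at 0 in any group given here, and their sum was 2324 to 3071 CPM at 0 h. In the text, rose and fell mean an adjusted p below 0.05 in edgeR's quasi-likelihood test with Benjamini-Hochberg adjustment over all genes of the fit, and differences are log2 fold changes ± SE. Of the 48 members, 46 passed the filter on low counts, and Kcnq1 (at most 0.0757 CPM) and Kcnk9 (at most 0.118 CPM), both potassium channel genes, did not.

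Imprinted transcripts became more abundant in untreated cells after day 2. Together the 48 members took 0.384 and 0.392% of all counts in untreated ES cells, 0.361 and 0.367% in day 2 controls, 0.959 to 0.995% in day 4 controls and 1.41 to 1.45% in day 6 controls. Much of the day 6 share lay in Peg3 (3757 and 3420 CPM), Igf2 (2577 and 2629 CPM) and Peg10 (2619 and 2415 CPM). From untreated day 2 to day 4, 26 of 46 tested members rose and 8 fell, where 52.1% of all genes were called, and the median difference was 0.47 over members and 0.01 over all genes. From day 4 to day 6, 19 rose and 5 fell, where 26.7% of all genes were called. Between 0 h ES cells and untreated day 2, 6 rose and 8 fell, where 18.2% of all genes were called. Without either 1 of the day 2 controls those 14 calls became 7 or 8, and in a fit of only these 4 libraries none remained. With the replicate block 16 were called. Fewer cells of a type and less RNA per cell cannot be told apart in such bulk samples.

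From day 2 to day 4 the largest rises were those of Dlk1, Peg3, Usp29 (4.09) and Igf2. Dlk1, a delta-like membrane protein gene, was 13.1 and 13.8 CPM on day 2 and 412 and 403 CPM on day 4 (4.94 ± 0.094, adjusted p = 8.21e-16), and did not pass from day 4 to day 6 (-0.0086 ± 0.077, adjusted p = 0.955). Peg3, a zinc-finger protein gene, rose from 138 and 143 to 2463 and 2588 CPM (4.18 ± 0.15, adjusted p = 7.80e-13). Igf2, the fetal growth factor, rose in both steps, from 28.9 and 29.2 CPM on day 2 to 365 and 377 on day 4 (3.69 ± 0.068) and 2577 and 2629 on day 6 (2.82 ± 0.064), with adjusted p = 7.97e-16 and 3.60e-14. None of these groups overlapped in a step that was called. Per kilobase of exon, Peg10 was the highest member in 0 h ES cells (211 CPM per kb) and Igf2 the highest on untreated day 6 (455 CPM per kb, before Peg10 at 378 and Peg3 at 269).

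In ES cells, no member was called after 24, 48 or 96 h of auxin, and neither was any other gene (0% of genes called in each of the 3 comparisons). At an unadjusted p below 0.05, edgeR's test gave 1, 3 and 7 members and 548, 1039 and 1767 of 20361 genes, and DESeq2 called 0 members and 76, 154 and 365 genes. Same-numbered ES libraries deviated together. With the replicate number as a block, 0, 0 and 4 members were called, where 0.113, 0.196 and 3.05% of all genes were. The 4 at 96 h were Dlk1, which was higher (log2 1.23, adjusted p = 0.0347), and Peg10 (-1.37, 0.0136), Ppp1r9a (-1.08, 0.0428) and Mest (-0.92, 0.0370), which were lower. Without the block their adjusted p was 0.492, 0.363, 0.345 and 0.390. A fit of all 24 libraries, whose spread includes the differentiation replicates, did call members in ES cells, as given in the closing section.

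The ES replicates of several members stood far apart. H19 was 2.09 and 40.0 CPM in the untreated ES libraries and 3.05 and 1.96 CPM at 96 h, and the 6 auxin-treated ES libraries lay between 1.73 and 8.77 CPM. Igf2 was 37.3 and 82.3 CPM at 0 h and 82.0 and 47.6 CPM at 96 h, and the groups overlapped. Dlk1 was 11.8 and 8.04 CPM at 0 h and 26.8 and 19.8 CPM at 96 h, which do not overlap. Peg10, a gag-pol gene derived from a retrotransposon, was 1024 and 1787 CPM at 0 h and 433 and 637 CPM at 96 h, and Mest, which encodes a hydrolase-like protein, was 197 and 132 and 81.7 and 87.9 CPM. Ppp1r9a, which encodes the actin-binding protein neurabin, was 74.4 and 66.1 CPM at 0 h and 25.7 and 42.9 CPM at 96 h. None of these 3 genes overlapped between the groups. With Dlk1 they are the 4 members called with the replicate block, so this is not separate support. The share of all genes without overlap was not counted. Self-test data drawn at the spread of these libraries gave calls for 56% of genes changed 4-fold and 1% of genes changed 2-fold at 96 h, so most 2-fold changes were not detectable in ES cells at this spread. The changed genes all had a mean log2 CPM above 1, so lower genes were not covered. Each library was drawn independently, whereas the same-numbered ES libraries deviated together.

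During differentiation, auxin changed many imprinted genes, in both directions. On day 2, 9 of 46 members rose and 14 fell with auxin, where 18.3% of all genes were called. On day 4, 5 rose and 15 fell, where 23.5% were called. On day 6, 7 rose and 18 fell, where 29.2% were called. The share of members called was thus 50, 43.5 and 54.3%, and the median difference over members was 0.00094, -0.17 and -0.06, against 0.02, 0 and 0.01 over all genes. The sizes stood closer than the shares called. Regardless of sign, the median difference was 0.321, 0.318 and 0.328 over members and 0.236, 0.252 and 0.289 over all genes. The day 2 auxin replicates spread more than those of the other differentiation groups (SD of the log2 ratio 0.258 against 0.121 to 0.146). The fit shares its estimate of the spread over all 16 libraries, so p-values that involve day 2 auxin may be too small. The day 2 count was 12 without control replicate 1 and 13 without control replicate 2. In 1 fit of all 24 libraries, whose spread includes the ES replicates, 1, 4 and 7 members were called on the 3 days, where 1.31, 3.37 and 6.56% of all genes were called. These were Grb10 on day 2, H19, Grb10, Peg12 and Plagl1 on day 4, and H19, Grb10, Ndn, Mkrn3, Peg12, Plagl1 and Nnat on day 6.

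On all 3 days, 7 members were called in 1 direction: H19, Cd81, Ndn, Peg12, Inpp5f and Peg13 were lower with auxin and Grb10 was higher. This is 15.2% of tested members, where 6.7% of all 22587 tested genes were called in 1 direction on all 3 days. The calls of Ndn, Peg12 and Inpp5f on day 2, and of Peg13 on day 4, were lost without 1 library, as given below. The 10 of 46 tested members called on none of the 3 days were H13, Mcts2, Blcap, Zim1, Ube3a, Ascl2, Slc22a18, Commd1, Dlk1 and Impact. Of all 22587 tested genes, 13060 were called on none of the 3 days. Of the 25 members listed as paternally expressed, 4, 2 and 3 rose and 8, 12 and 13 fell on days 2, 4 and 6. Of the 21 tested members listed as maternally expressed, 5, 3 and 4 rose and 6, 3 and 5 fell. Of all genes, 18.3, 23.5 and 29.2% were called on these days. The listed copy was not checked in these cells.

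Markers of cell state moved with auxin on all 3 days, and their part in the imprinted gene differences was not tested. Of the 6 ES cell markers, 1 rose and 2 fell on day 2, and 5 rose and 1, Sox2, fell on days 4 and 6. Their summed level was 1386 to 1429 CPM in day 2 controls and 1357 CPM in both auxin libraries, 496 to 498 against 790 to 796 CPM on day 4, and 272 to 281 against 576 to 603 CPM on day 6. The day 2 sum holds changes in both directions: Nanog was 133 and 133 against 81.6 and 83.6 CPM, and Klf4 was 193 and 188 against 270.05 and 294 CPM. Of the 5 neural progenitor markers, 2 rose and 2 fell on day 2, 1 rose and 4 fell on day 4, and all 5 fell on day 6. They summed to 62.2 to 66.8 against 60.3 to 62.1 CPM on day 2, 162 to 167 against 91.6 to 99.2 CPM on day 4 and 202 to 203 against 133 to 143 CPM on day 6. On day 2 the transcription factor genes Sox1 (18.1 and 19.3 against 9.16 and 9.49 CPM) and Pax6 (19.96 and 21.97 against 12.8 and 11.7 CPM) fell, while the intermediate filament gene Nes rose (16.9 and 18.5 against 28.8 and 32.2 CPM). Nes was also the 1 that rose on day 4 (57.6 and 60.5 against 68.9 and 77.1 CPM). The 4 neuron markers, of which 1 rose and 2 fell on day 2, summed to 140.1 to 140.8 against 112 to 126 CPM then; 3 fell on day 4, and all 4 fell on day 6, when they summed to 181 to 193 against 13.9 to 14.1 CPM. None of these 15 markers was at 0 in these groups. All 5 fibroblast markers fell on day 6, when they summed to 449 to 453 against 229 to 241 CPM. The 4 muscle markers summed to 334 to 344 against 610 to 614 CPM on day 6, nearly all of it the smooth muscle actin gene Acta2 (332 and 342 against 607 and 611 CPM). The 4 mesoderm markers summed to 46.5 to 49.99 against 27.5 to 29.9 CPM on day 4. Of the 3 tested, Osr1 fell (26.8 and 22.8 against 1.63 and 1.70 CPM) and 2 did not pass, among them Foxf1 (22.9 and 23.3 against 25.2 and 27.7 CPM). Mesp1 was at 0 in the day 4 controls and Myod1 with auxin. The 5 endoderm markers, of which 1 rose and 1 fell, summed to 169 to 176 against 173 to 174 CPM on day 4, and the 4 trophoblast markers to 28.0 to 28.1 against 16.03 to 16.9 CPM, with Prl3d1 at 0 in both groups and Tpbpa with auxin.

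**Figure D1:**
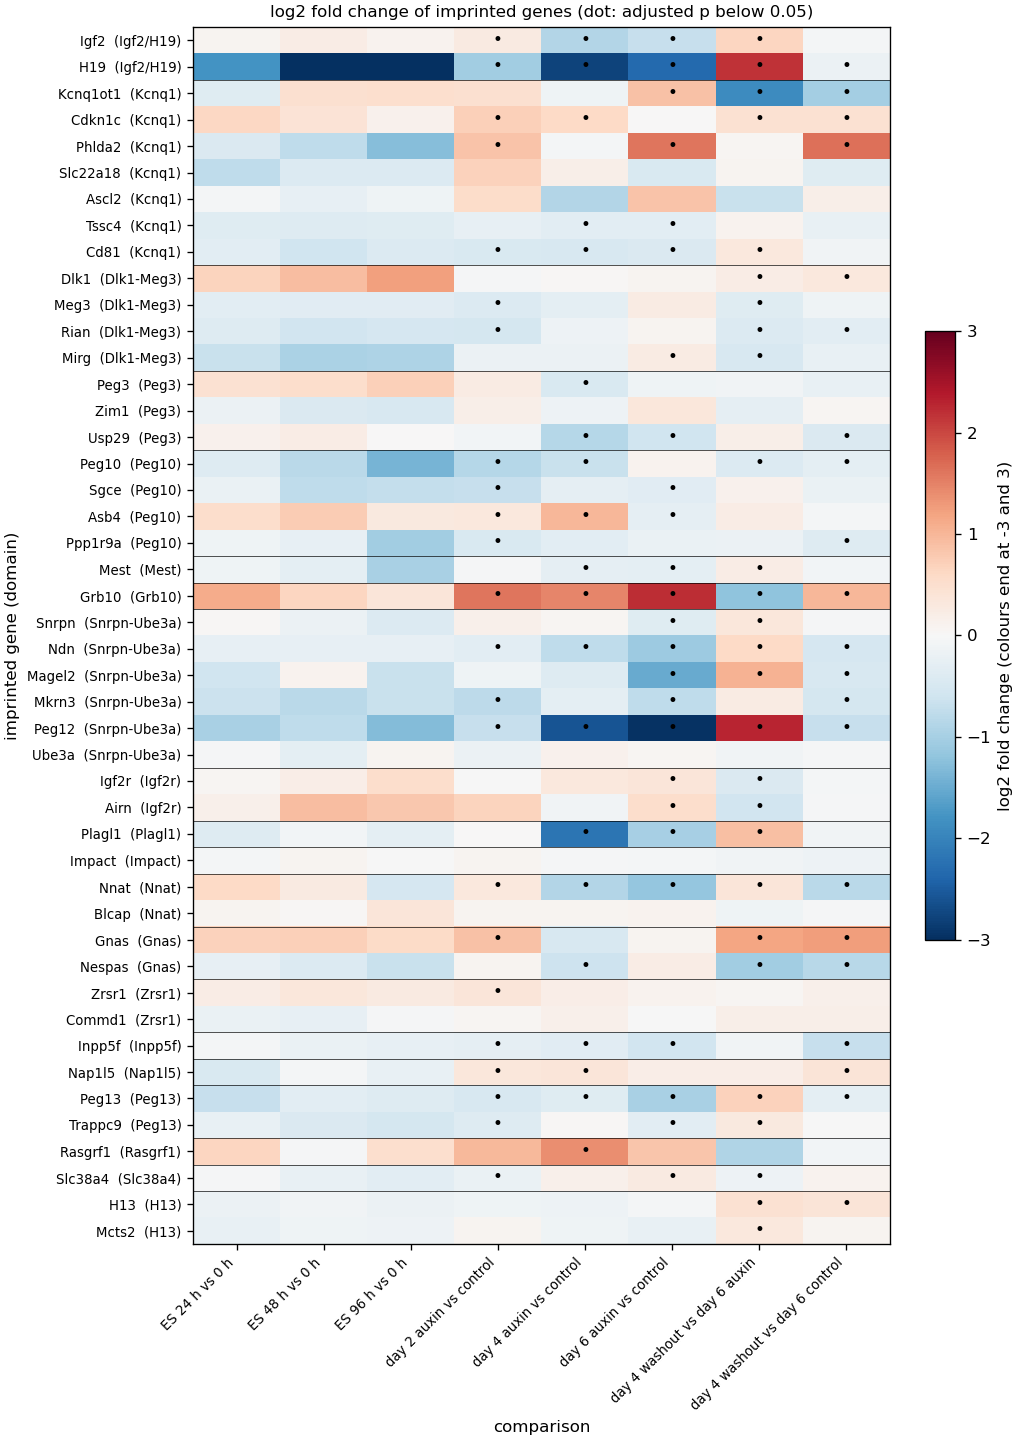
Log2 fold change of the 46 tested members (rows, by domain) in 8 comparisons (columns), red for higher and blue for lower with colours ending at -3 and 3, and a dot where adjusted p is below 0.05. No ES column has a dot, Grb10 is red and dotted on days 2, 4 and 6, and H19 and Peg12 are blue and dotted on the same days.

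H19, the maternally expressed long noncoding RNA of the Igf2 domain (mm10, chr7:142575529-142578143, minus strand), fell on every day. On day 2 it was 16.04 and 15.3 CPM in the controls and 8.15 and 6.88 with auxin (-1.05 ± 0.075, adjusted p = 5.88e-08). On day 4 it was 143 and 148 against 21.6 and 21.3 CPM (-2.77 ± 0.069, adjusted p = 2.33e-13). On day 6 the values were 421 and 416 against 82.7 and 85.5 CPM (-2.33 ± 0.066, adjusted p = 1.04e-12). The groups were well apart on each day, and the day 4 controls were about 6.82 times the auxin libraries. Igf2 (chr7:142650766-142666816, minus strand) moved less and not in 1 direction: on day 2 it was 28.9 and 29.2 CPM in the controls and 33.7 and 35.7 with auxin (0.27 ± 0.064, adjusted p = 0.00647). Its call was lost without control replicate 1 (adjusted p = 0.0518). On day 4 it was 365 and 377 against 198 and 205 CPM (-0.89 ± 0.061, adjusted p = 1.58e-08) and on day 6 2577 and 2629 against 1621 and 1628 CPM (-0.69 ± 0.060, adjusted p = 1.68e-07). The later 2 days were lower with auxin in both libraries.

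Since both genes are read in the same library, the count of Igf2 per count of H19 shows the balance of the domain free of library scaling. It was 1.80 and 1.91 in day 2 controls against 4.14 and 5.19 with auxin, 2.56 and 2.54 against 9.17 and 9.65 on day 4, and 6.12 and 6.32 against 19.6 and 19.05 on day 6. On each day both auxin libraries lay above both controls. After washout on day 4 the ratio was 7.22 and 6.27, and after washout on day 6 it was 6.18 and 6.35, near the day 6 controls. In ES cells the untreated pair was 17.8 and 2.06. The same-numbered libraries at 24, 48 and 96 h were 18.4, 52.5 and 26.9 for replicate 1 and 7.57, 13.9 and 24.4 for replicate 2. Each lay above the untreated library of the same number, but replicate 1 at 24 h only slightly. The replicate 2 differences all rest on 1 untreated library, which held 40.0 CPM of H19, against 2.09 CPM in the other. The labels give no pairing beyond the number. Between groups, the values at 24 and 48 h overlap those at 0 h, and both at 96 h lie above them. The ratio itself was not tested in ES cells. A share of 64.5% of the exonic bases of Igf2 is shared with other annotated genes (Gm49394 and Igf2os), and 62.8% on the same strand. The Igf2 count, and with it the ratio, may thus be incomplete under any strand setting. The setting of the counting is not given in the sources used here.

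**Figure D2:**
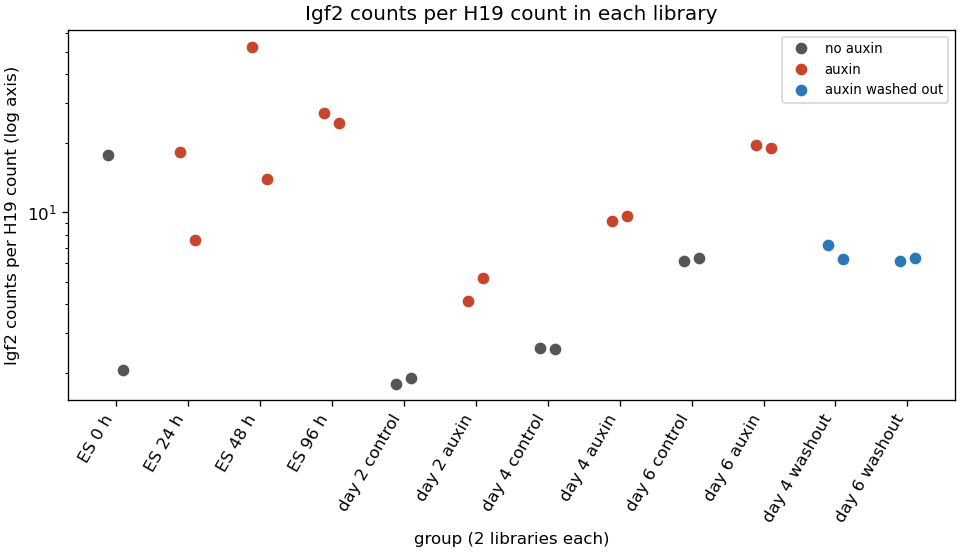
Igf2 counts per H19 count (log axis) in each of the 24 libraries, 2 points a group, grey without auxin, red with auxin and blue after washout. On days 2, 4 and 6 both auxin points lie above both control points, the washout points lie near the day 6 controls, and the ES replicates are spread widely.

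H19 and Igf2 were near control levels after washout. Compared with day 6 auxin, the day 4 washout libraries, also harvested on day 6, had more H19 (369 and 371 CPM, 2.16 ± 0.066, adjusted p = 1.08e-11) and more Igf2 (2660 and 2324 CPM, 0.64 ± 0.060, adjusted p = 5.93e-07). Against day 6 controls, Igf2 did not pass (-0.053 ± 0.060, adjusted p = 0.539, 95% interval -0.18 to 0.074). H19 was slightly lower (-0.17 ± 0.063, adjusted p = 0.0462). Without day 6 control replicate 1 or 2 or washout replicate 1 or 2 (adjusted p = 0.129 to 0.159) it was lost. The day 6 washout libraries held 441 and 432 CPM of H19 and 2723 and 2744 CPM of Igf2.

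Mrpl23, a mitochondrial ribosomal protein gene 34.8 kb from H19 and not among the members, was read for comparison. It is 1 of 5 listed neighbours of Igf2 and H19, which did not move in 1 direction. Of the 5, 1 rose and 1 fell on day 2, 0 rose and 2 fell on day 4, and 2 rose and 1 fell on day 6. Of all genes, 18.3, 23.5 and 29.2% were called on these days. Mrpl23 was 15.5 and 15.4 CPM in day 2 controls against 4.96 and 4.19 with auxin (-1.75 ± 0.12, adjusted p = 4.17e-08), and it also fell on day 4 (-1.84 ± 0.12, adjusted p = 9.40e-09) and day 6 (-1.22 ± 0.12, adjusted p = 4.88e-07). In the day 4 washout it was 7.61 and 6.86 CPM (0.20 ± 0.12, adjusted p = 0.227 against day 6 auxin, and -1.03 ± 0.12, adjusted p = 4.08e-06 against day 6 controls). In ES cells it was 18.1 and 18.5 CPM at 0 h and 6.73 and 5.45 CPM at 96 h (-1.60 ± 0.32, adjusted p = 0.265, or 0.0224 with the replicate block).

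Grb10, an adaptor protein that binds the insulin and IGF1 receptors and restrains growth, was the member with the largest rise on each day. It lies at chr11:11930508-12038683, minus strand. It is transcribed from the maternal copy in most tissues and from the paternal copy, by a downstream start, in neurons, and gene counts add both. Which annotated start of Grb10 serves the paternal copy was not determined here. The 2 RefSeq windows of GRCm38.p6 at its annotated starts (250 bases before to 50 after each, minus strand) are shown because both feed the gene's count; capitals mark CG dinucleotides, 45 in the upstream window at chr11:12037371-12037670 and 9 in the downstream window at chr11:12027922-12028221, where the median over all RefSeq windows is 7.
Grb10 upstream: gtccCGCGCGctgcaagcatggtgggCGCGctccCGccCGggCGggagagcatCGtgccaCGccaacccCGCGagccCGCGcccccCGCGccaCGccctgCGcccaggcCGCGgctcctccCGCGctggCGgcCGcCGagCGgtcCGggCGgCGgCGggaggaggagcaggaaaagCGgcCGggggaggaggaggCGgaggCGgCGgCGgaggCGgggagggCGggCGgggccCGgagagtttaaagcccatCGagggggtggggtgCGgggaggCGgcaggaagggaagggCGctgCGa
Grb10 downstream: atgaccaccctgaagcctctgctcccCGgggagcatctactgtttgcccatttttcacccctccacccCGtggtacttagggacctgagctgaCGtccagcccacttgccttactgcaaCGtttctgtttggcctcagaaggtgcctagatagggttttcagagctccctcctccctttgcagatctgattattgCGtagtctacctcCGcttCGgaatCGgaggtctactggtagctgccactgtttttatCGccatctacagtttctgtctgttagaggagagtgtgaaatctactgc

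On day 2 Grb10 was 88.6 and 90.5 CPM in the controls and 254 and 284 with auxin (1.60 ± 0.070, adjusted p = 2.68e-10). On day 4 it was 72.7 and 67.2 against 189.7 and 199.9 CPM (1.47 ± 0.070, adjusted p = 3.01e-10). On day 6 the values were 36.2 and 36.7 against 169 and 172 CPM (2.21 ± 0.072, adjusted p = 3.78e-12). Grb10 fell in the controls from day 4 to day 6 (-0.93 ± 0.070, adjusted p = 4.57e-08), and the auxin libraries were the higher on every day. Washout on day 4 gave 68.3 and 76.7 CPM, below day 6 auxin (-1.21 ± 0.070, adjusted p = 2.70e-09) and above day 6 controls (1.00 ± 0.071, adjusted p = 2.15e-08), and after washout on day 6 it was 81.9 and 79.2 CPM. In ES cells it was 36.6 and 44.1 CPM at 0 h, 86.7 and 89.2 at 24 h and 58.2 and 46.8 at 96 h, without a call at 24 h (1.12 ± 0.27, adjusted p = 0.849, or 0.120 with the replicate block) or at 96 h (0.37 ± 0.27, adjusted p = 0.779, or 0.405 with the block).

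**Figure D3:**
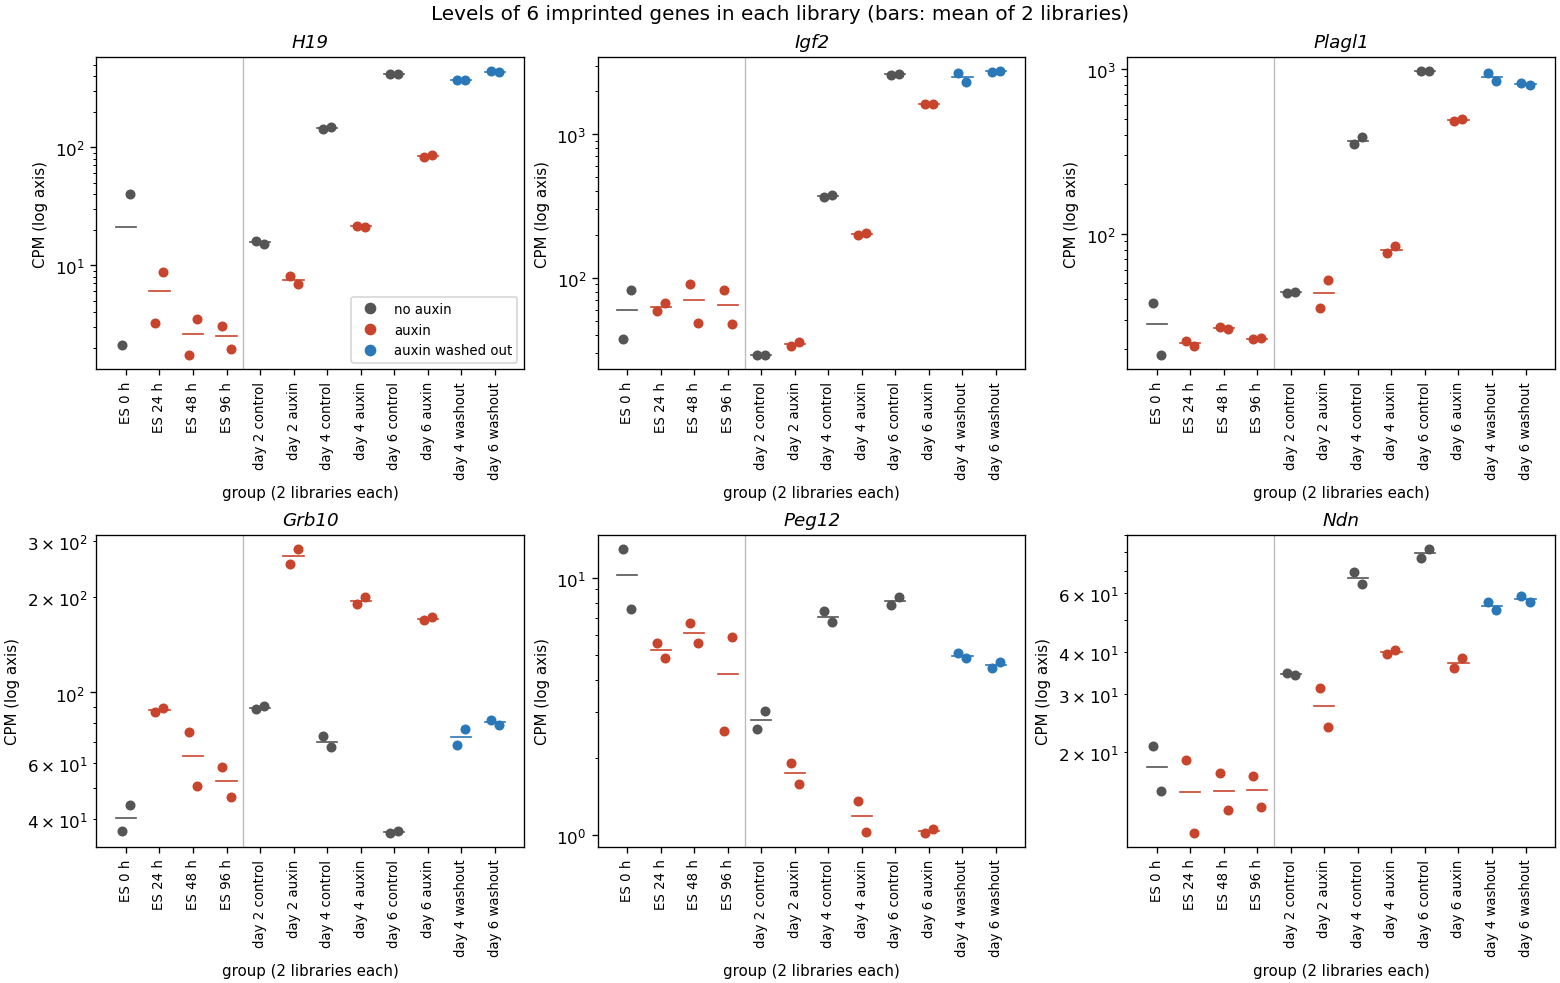
CPM (log axis) of H19, Igf2, Plagl1, Grb10, Peg12 and Ndn in each library of the 12 groups, with a bar at the mean of the 2 libraries, grey without auxin, red with auxin and blue after washout. On days 4 and 6 both auxin libraries lie below both controls for every gene shown except Grb10, where they lie above, and the 0 h H19 points lie far apart.

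The neighbouring gene Ddc, which encodes aromatic amino acid decarboxylase and lies 32.4 kb from Grb10, moved the other way. It fell on day 2 (-0.74 ± 0.091, adjusted p = 2.44e-05), day 4 (-1.01 ± 0.10, adjusted p = 9.49e-07) and day 6 (-1.20 ± 0.10, adjusted p = 6.58e-08), and was 30.1 and 29.4 CPM in day 6 controls against 12.53 and 13.6 with auxin. In ES cells at 96 h it was -1.71 ± 0.31 (adjusted p = 0.265, or 0.0136 with the replicate block).

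Plagl1, a zinc-finger transcription factor of the growth-regulating imprinted genes (chr10:13060504-13131694, plus strand), differed by day. On day 2 it was 43.9 and 44.4 CPM in the controls and 35.4 and 52.4 with auxin, and the groups overlapped (0.0075 ± 0.12, adjusted p = 0.982, 95% interval -0.25 to 0.26). On day 4 it was 348 and 386 against 76.5 and 84.1 CPM (-2.20 ± 0.12, adjusted p = 1.52e-09). On day 6 the values were 968 and 967 against 483 and 494 CPM (-0.998 ± 0.12, adjusted p = 4.74e-06). Levels were higher on day 4 than on day 2 in both arms, less so with auxin. The auxin effect on day 4 differed from that on day 2 (-2.21 ± 0.17, adjusted p = 5.22e-07). In the day 4 washout it was 945 and 846 CPM, above day 6 auxin (0.90 ± 0.12, adjusted p = 1.83e-05), and the values did not pass against day 6 controls (-0.10 ± 0.11, adjusted p = 0.538).

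In the Snrpn-Ube3a domain on chromosome 7, whose paternally expressed genes are linked to Prader-Willi syndrome, Peg12, Ndn and Magel2 were lower with auxin late in differentiation. Peg12, a GSK3-binding protein of the FRAT family (chr7:62461871-62464510, minus strand), had the largest fall of any member on day 6. It was 2.59 and 3.04 CPM in day 2 controls against 1.91 and 1.58 with auxin (-0.68 ± 0.16, adjusted p = 0.00567). That call did not hold without control replicate 2 (adjusted p = 0.0704). It was 7.39 and 6.73 against 1.36 and 1.03 CPM on day 4 (-2.58 ± 0.16, adjusted p = 3.90e-09). The day 6 values were 7.80 and 8.41 against 1.02 and 1.06 CPM (-2.97 ± 0.16, adjusted p = 6.27e-10). Peg12 rose in the controls from day 2 to day 4 (1.34 ± 0.14, adjusted p = 4.09e-07), and all 6 auxin libraries were below all 6 controls. The day 4 washout libraries held 5.11 and 4.86 CPM, above day 6 auxin (2.27 ± 0.16, adjusted p = 2.80e-08) and below day 6 controls (-0.69 ± 0.13, adjusted p = 0.000672). In ES cells it was 12.9 and 7.57 CPM at 0 h and 2.54 and 5.88 at 96 h (-1.30 ± 0.48, adjusted p = 0.472, or 0.162 with the replicate block).

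The RefSeq window at the start of Peg12 (GRCm38.p6, chr7:62464461-62464760, minus strand) is shown because it is 1 of 2 member windows, with that of H13, that match the 12-base core of the CTCF motif on either strand. Any base was accepted at the 4 degenerate positions of the core. Capitals mark the match, which starts 195 bases before the transcript start.
Peg12: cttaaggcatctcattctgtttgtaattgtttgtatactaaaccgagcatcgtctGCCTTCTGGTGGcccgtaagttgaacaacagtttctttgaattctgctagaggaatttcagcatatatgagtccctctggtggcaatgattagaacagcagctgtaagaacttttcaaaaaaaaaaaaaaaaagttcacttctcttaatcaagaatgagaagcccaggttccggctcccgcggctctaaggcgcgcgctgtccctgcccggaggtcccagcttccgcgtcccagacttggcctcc

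Windows were found for 38 of the 48 members (56 windows). Over all 32851 windows of the same length, 797 (2.43%) hold a match. A match is a description of the letters only, and binding was not analysed here. H13, which holds the other match and encodes signal peptide peptidase, was not called in any auxin comparison (day 6 -0.065 ± 0.075, adjusted p = 0.575).

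Ndn, which encodes the MAGE-family protein necdin and lies 112 kb from Peg12, fell on days 4 and 6. It was 69.8 and 64.2 against 39.4 and 40.6 CPM on day 4 (-0.75 ± 0.10, adjusted p = 2.20e-05). Day 6 gave 76.5 and 81.8 against 35.9 and 38.5 CPM (-1.10 ± 0.10, adjusted p = 2.10e-07). On day 2 it was 34.5 and 34.2 against 31.3 and 23.8 CPM (-0.31 ± 0.10, adjusted p = 0.0400). Leaving out auxin replicate 2 or control replicate 1 or 2 (adjusted p = 0.122 to 0.229) ended the call. Washout on day 4 gave 56.6 and 53.4 CPM, between day 6 auxin (0.59 ± 0.10, adjusted p = 0.000220) and day 6 controls (-0.52 ± 0.10, adjusted p = 0.000552). Magel2, another MAGE gene, was 6.61 and 6.97 against 2.88 and 1.87 CPM on day 6 (-1.52 ± 0.18, adjusted p = 7.71e-06), and did not pass on day 2 (-0.14 ± 0.18, adjusted p = 0.668) or day 4 (-0.38 ± 0.18, adjusted p = 0.149). In the day 4 washout it was 4.54 and 5.10 CPM (1.04 ± 0.19, adjusted p = 0.000512 against day 6 auxin). The difference from day 6 controls (-0.48 ± 0.17, adjusted p = 0.0407) was lost with the block (adjusted p = 0.0511) and without day 6 control replicate 1 or 2 or washout replicate 1 or 2 (adjusted p = 0.0876 to 0.193).

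Mkrn3, a makorin ubiquitin ligase gene of the same domain, was 9.10 and 9.14 against 4.62 and 5.82 CPM on day 2 (-0.79 ± 0.12, adjusted p = 0.000231). On day 6 it was 6.81 and 7.85 against 4.33 and 4.33 CPM (-0.77 ± 0.12, adjusted p = 0.000143), and on day 4 there was no call (-0.29 ± 0.12, adjusted p = 0.103). Washout on day 4 gave 5.07 and 5.00 CPM, lower than day 6 controls (-0.53 ± 0.12, adjusted p = 0.00305). The difference was not called without day 6 control replicate 2 (adjusted p = 0.0531). Snrpn, a spliceosome protein gene 2206349 bp from Ndn, changed less. It was 42.2 and 41.7 against 32.1 and 33.8 CPM on day 6 (-0.36 ± 0.089, adjusted p = 0.00533). This one was lost without auxin replicate 1 (adjusted p = 0.0547). It did not pass on day 2, at 78.8 and 71.7 against 92.0 and 73.8 CPM (0.15 ± 0.087, adjusted p = 0.259), or on day 4, at 39.7 and 36.7 against 40.1 and 39.7 CPM (0.055 ± 0.089, adjusted p = 0.724). Washout on day 4 gave 40.2 and 41.8 CPM (0.34 ± 0.089, adjusted p = 0.00831 against day 6 auxin). The call was lost without day 6 auxin replicate 1 or washout replicate 2 (adjusted p = 0.0539 to 0.0686). Ube3a, the ubiquitin ligase gene expressed from the maternal copy in neurons, was called in none of the auxin or washout comparisons (day 6 0.059 ± 0.12, adjusted p = 0.761, 95% interval -0.19 to 0.31). Shared exonic bases are 34.1% for Snrpn (with Snurf, listed at 0 in all libraries) and 27.3% for Ube3a.

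The Dlk1-Meg3 domain on chromosome 12, with a paternal coding gene and maternal noncoding RNAs, had 1 call in the day 4 and day 6 auxin comparisons, that of Mirg on day 6. Dlk1 was 412 and 403 against 405 and 428 CPM on day 4 (0.025 ± 0.077, adjusted p = 0.869). The day 6 values were 378 and 426 against 454 and 407 CPM (0.087 ± 0.077, adjusted p = 0.450). The 95% interval was -0.14 to 0.19 on day 4 and -0.077 to 0.25 on day 6. Meg3 was 63.2 and 73.9 against 46.3 and 56.2 CPM on day 2 (-0.41 ± 0.11, adjusted p = 0.0136). It did not pass without control replicate 2 (adjusted p = 0.138). On day 4 it was 289 and 318 against 248 and 251 CPM (-0.29 ± 0.10, adjusted p = 0.0546) and on day 6 400.4 and 351 against 469 and 421 CPM (0.23 ± 0.10, adjusted p = 0.106), neither of which passed. Rian, the host of a cluster of small nucleolar RNAs, was 199.9 and 197 against 131 and 141 CPM on day 2 (-0.53 ± 0.075, adjusted p = 9.90e-05) and did not pass later. Mirg, a microRNA host, was 51.3 and 48.7 against 63.7 and 56.1 CPM on day 6 (0.25 ± 0.087, adjusted p = 0.0405). Without auxin replicate 1 or control replicate 1 or 2 (adjusted p = 0.0953 to 0.378) it was lost.

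After washout on day 4, Dlk1 was higher and the noncoding RNAs were lower than in day 6 auxin. Dlk1 was 501 and 496 CPM, above day 6 controls (0.32 ± 0.077, adjusted p = 0.00432), a call lost without day 6 control replicate 1 (adjusted p = 0.0894), and above day 6 auxin (0.23 ± 0.077, adjusted p = 0.0290). The latter call was lost without day 6 auxin replicate 2 or washout replicate 1 or 2 (adjusted p = 0.0811 to 0.307). Rian was 579.9 and 597 CPM, below day 6 auxin (-0.40 ± 0.074, adjusted p = 0.000597) and below day 6 controls (-0.31 ± 0.074, adjusted p = 0.00364). The latter was lost without day 6 control replicate 1 (adjusted p = 0.0600). Mirg was 41.6 and 43.0 CPM, also below day 6 auxin (-0.48 ± 0.088, adjusted p = 0.000494), and Meg3 was 349 and 333 CPM (-0.36 ± 0.10, adjusted p = 0.0127). The Meg3 call did not hold without day 6 auxin replicate 1 or washout replicate 2 (adjusted p = 0.104 to 0.129). In the day 6 washout libraries, Meg3 counts per Dlk1 count were 0.386 and 0.342, against 1.06 and 0.822 in day 6 controls, but no control of the same day was analysed here.

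**Figure D4:**
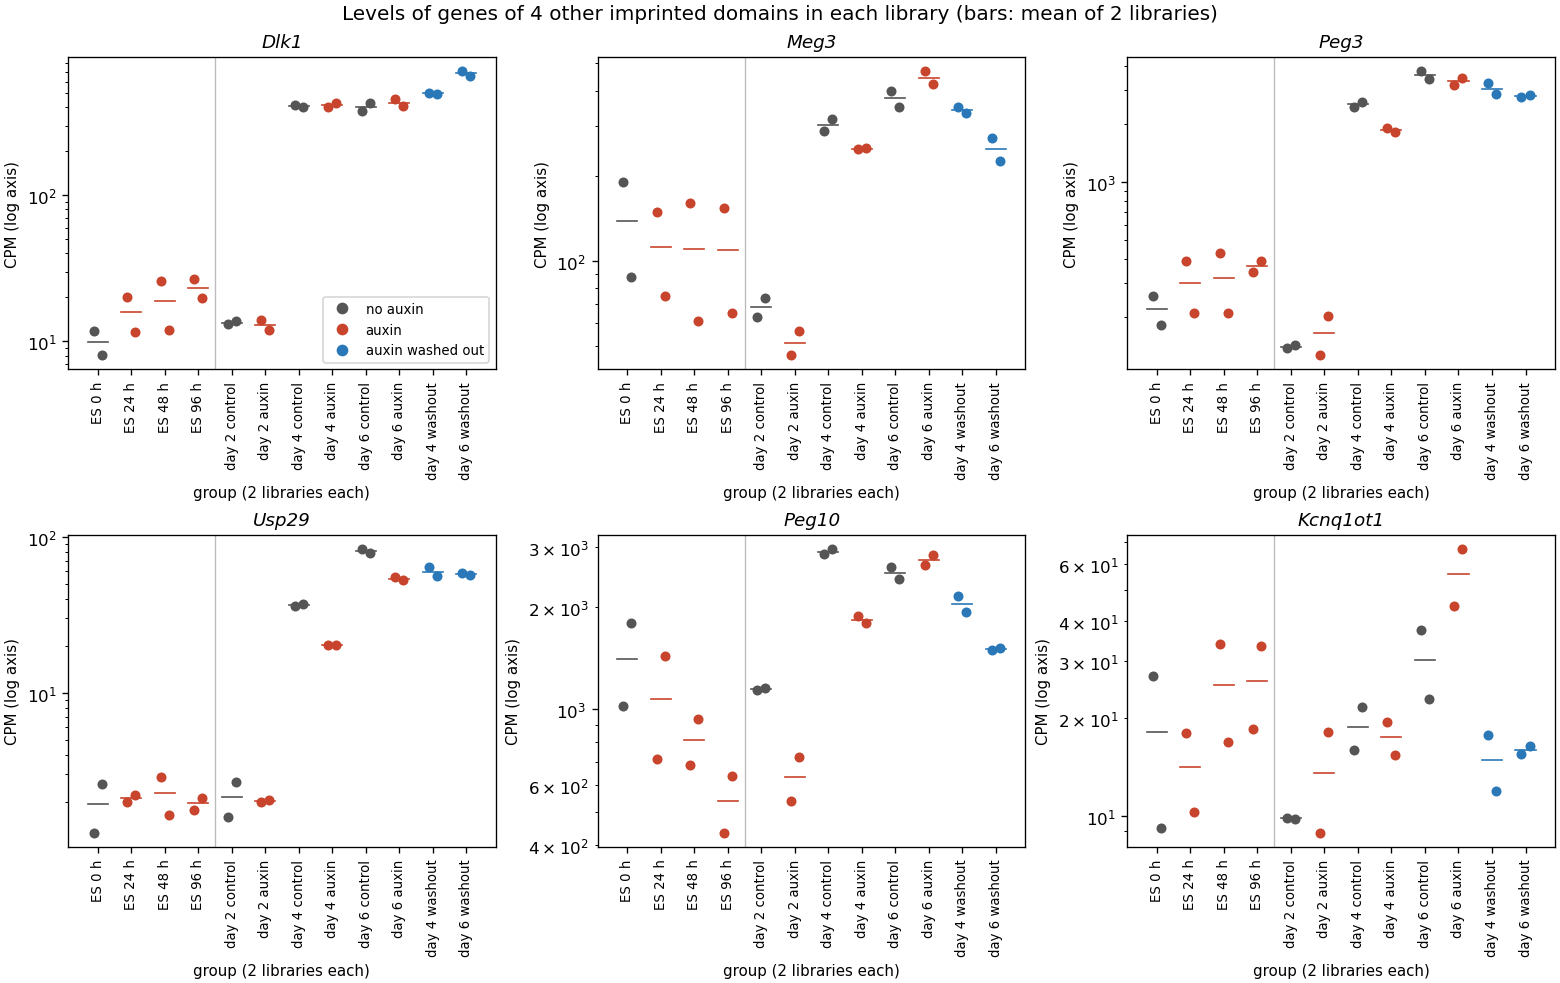
CPM (log axis) of Dlk1, Meg3, Peg3, Usp29, Peg10 and Kcnq1ot1 in each library of the 12 groups, with a bar at the mean of the 2 libraries, grey without auxin, red with auxin and blue after washout. From day 4 on, Dlk1 lies at 378 CPM or more with and without auxin, Usp29 lies lower with auxin on days 4 and 6, and the Kcnq1ot1 replicates are spread in most groups.

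In the Kcnq1 domain, Cd81, a tetraspanin gene, fell on all 3 days and most other members had low counts. Cd81 was 57.1 and 55.4 against 41.3 and 39.7 CPM on day 2 (-0.46 ± 0.068, adjusted p = 0.000139) and 60.6 and 58.8 against 41.8 and 43.9 on day 4 (-0.49 ± 0.068, adjusted p = 4.79e-05). Day 6 gave 85.0 and 93.9 against 69.0 and 65.2 (-0.43 ± 0.067, adjusted p = 0.000105). The day 4 washout libraries held 83.3 and 82.5 CPM, above day 6 auxin (0.33 ± 0.067, adjusted p = 0.00130), and the values did not pass against controls (-0.10 ± 0.066, adjusted p = 0.266). Kcnq1ot1, the paternal antisense RNA that silences the domain, was 37.6 and 22.9 CPM in day 6 controls and 44.6 and 66.9 with auxin (0.87 ± 0.28, adjusted p = 0.0248), a call lost without auxin replicate 2 or control replicate 2 (adjusted p = 0.256 to 0.264) and in DESeq2 (adjusted p = 0.070). It did not pass on day 2, at 9.87 and 9.80 against 8.86 and 18.2 CPM, or on day 4, at 16.005 and 21.6 against 19.5 and 15.4 CPM. In the day 4 washout it was 17.8 and 11.9 CPM, lower than day 6 auxin (-1.89 ± 0.29, adjusted p = 0.000101) and lower than day 6 controls (-1.01 ± 0.29, adjusted p = 0.0121). The latter call did not hold without day 6 control replicate 1 or washout replicate 2 (adjusted p = 0.150 to 0.182).

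Cdkn1c, the cell cycle inhibitor p57, was 2.76 and 2.93 against 5.54 and 3.73 CPM on day 2 (0.71 ± 0.18, adjusted p = 0.0105). Leaving out auxin replicate 1 or control replicate 1 or 2 (adjusted p = 0.0604 to 0.129) ended the call. On day 4 it was 4.16 and 4.02 against 5.89 and 6.59 CPM (0.60 ± 0.17, adjusted p = 0.0141), lost without auxin replicate 2 or control replicate 1 or 2 (adjusted p = 0.0625 to 0.115), and on day 6 7.998 and 10.8 against 9.87 and 9.33 CPM, with no call (0.017 ± 0.15, adjusted p = 0.952). Washout on day 4 gave 12.04 and 13.8 CPM, above day 6 controls (0.47 ± 0.15, adjusted p = 0.0246, lost without day 6 control replicate 1 or washout replicate 2, adjusted p = 0.179 to 0.282). It was also above day 6 auxin (0.45 ± 0.15, adjusted p = 0.0301, lost without day 6 auxin replicate 1 or 2 or washout replicate 2, adjusted p = 0.0811 to 0.196). The groups did not overlap on days 2 and 4. Phlda2, a restraint on placental growth, was at low counts: 0.424 and 0.549 against 1.82 and 1.19 CPM on day 6 (1.61 ± 0.25, adjusted p = 0.000117). The day 2 values were 1.33 and 1.38 against 2.61 and 2.28 CPM (0.86 ± 0.22, adjusted p = 0.0103), a call lost without control replicate 1 or 2 (adjusted p = 0.0668 to 0.0831), and after washout on day 4 it was 1.36 and 1.72 CPM (1.66 ± 0.25, adjusted p = 8.93e-05 against day 6 controls). Tssc4 was 42.1 and 42.9 against 32.8 and 35.5 CPM on day 4 (-0.32 ± 0.091, adjusted p = 0.0156), lost without auxin replicate 1 or control replicate 1 or 2 (adjusted p = 0.0657 to 0.145), and 40.7 and 38.6 against 32.9 and 31.2 CPM on day 6 (-0.32 ± 0.091, adjusted p = 0.0141). Leaving out auxin replicate 2 or control replicate 1 (adjusted p = 0.0928 to 0.123) ended the call. Slc22a18 and Ascl2, a transporter and a trophoblast transcription factor gene, were called in no auxin or washout comparison.

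In the Peg3 domain, Usp29, a ubiquitin protease gene that starts 146 bp from Peg3, fell on days 4 and 6. It was 36.0 and 37.0 against 20.3 and 20.1 CPM on day 4 (-0.86 ± 0.11, adjusted p = 2.01e-05). On day 6 it was 83.7 and 79.1 against 55.2 and 52.5 CPM (-0.61 ± 0.11, adjusted p = 0.000312). After washout on day 4 it was 63.6 and 55.8 CPM, lower than day 6 controls (-0.44 ± 0.11, adjusted p = 0.00423). The difference was not called without washout replicate 2 (adjusted p = 0.0784). Peg3 itself was 2463 and 2588 against 1901 and 1822 CPM on day 4 (-0.45 ± 0.13, adjusted p = 0.0223). This one was lost without auxin replicate 1 or 2 or control replicate 1 or 2 (adjusted p = 0.0683 to 0.129). On day 2 it was 138 and 143 against 127 and 203 CPM and on day 6 3757 and 3420 against 3202 and 3464 CPM, with no call on either day (adjusted p = 0.254 and 0.567). Zim1, a zinc-finger gene of the domain, was called on none of the 3 days.

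Peg10 and Sgce, which start 98 bp apart in opposite directions, both fell on day 2. Peg10 was 1137 and 1157 against 538 and 722 CPM on day 2 (-0.85 ± 0.10, adjusted p = 8.77e-06) and 2848 and 2959 against 1872 and 1789 CPM on day 4 (-0.67 ± 0.095, adjusted p = 5.34e-05). The day 6 values were 2619 and 2415 against 2659 and 2832 CPM, with no call (0.11 ± 0.094, adjusted p = 0.415). Sgce, the epsilon-sarcoglycan gene, was 26.3 and 28.2 against 18.1 and 15.4 CPM on day 2 (-0.69 ± 0.10, adjusted p = 9.48e-05). Day 6 gave 44.1 and 42.1 against 33.9 and 34.8 CPM (-0.34 ± 0.094, adjusted p = 0.0116). The difference was not called without auxin replicate 1 or 2 or control replicate 1 (adjusted p = 0.0594 to 0.0764). After washout on day 4 Peg10 was 2151 and 1932 CPM, below day 6 auxin (-0.41 ± 0.095, adjusted p = 0.00335, lost without washout replicate 2, adjusted p = 0.0612) and below day 6 controls (-0.29 ± 0.094, adjusted p = 0.0249, lost without day 6 control replicate 1 or washout replicate 2, adjusted p = 0.163 to 0.224).

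The maternally expressed neighbours of Peg10 differed by day. Asb4, an ankyrin-repeat SOCS-box gene, was 8.38 and 8.32 against 17.6 and 15.8 CPM on day 4, higher with auxin (0.99 ± 0.091, adjusted p = 4.28e-07). The day 2 values were 31.6 and 33.1 against 38.1 and 41.6 CPM (0.31 ± 0.083, adjusted p = 0.0140), a call lost without control replicate 1 or 2 (adjusted p = 0.0712 to 0.152), and on day 6 10.1 and 9.77 against 8.10 and 8.60 CPM (-0.26 ± 0.093, adjusted p = 0.0438), lower and lost without auxin replicate 1 or 2 or control replicate 1 or 2 (adjusted p = 0.0996 to 0.222) and with the block (0.0555). Ppp1r9a was 59.4 and 59.7 against 32.4 and 53.2 CPM on day 2 (-0.46 ± 0.14, adjusted p = 0.0304). This one was lost without auxin replicate 1 or control replicate 1 or 2 (adjusted p = 0.0670 to 0.106). The day 4 washout libraries held 46.6 and 44.4 CPM (-0.39 ± 0.14, adjusted p = 0.0420 against day 6 controls). The call was lost without day 6 control replicate 1 or 2 or washout replicate 1 or 2 (adjusted p = 0.0678 to 0.217). Mest, on the same chromosome, was 515 and 513 against 430.1 and 432 CPM on day 4 (-0.26 ± 0.056, adjusted p = 0.00249). On day 6 it was 632 and 642 against 522 and 519 CPM (-0.30 ± 0.056, adjusted p = 0.000543), and 612 and 581 CPM after washout on day 4 (0.22 ± 0.056, adjusted p = 0.00702 against day 6 auxin, lost without day 6 auxin replicate 2 or washout replicate 1, adjusted p = 0.0575 to 0.0848).

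Igf2r, the receptor that removes IGF2, and Airn, the antisense RNA that overlaps it and silences its paternal copy, were both higher with auxin on day 6. Igf2r was 151 and 154 against 117 and 184 CPM on day 2 (-0.0056 ± 0.13, adjusted p = 0.989) and 150.5 and 159.7 against 194 and 196 on day 4 (0.32 ± 0.13, adjusted p = 0.0908). The day 6 values were 148 and 136 against 177 and 191 (0.36 ± 0.13, adjusted p = 0.0476). The day 6 call was lost without auxin replicate 1 or 2 or control replicate 1 or 2 (adjusted p = 0.0923 to 0.250). Airn was 1.07 and 0.661 against 1.24 and 1.47 CPM on day 2 (0.68 ± 0.27, adjusted p = 0.0969) and 5.72 and 8.12 against 6.82 and 6.09 on day 4 (-0.11 ± 0.17, adjusted p = 0.704). Day 6 gave 13.2 and 12.1 against 16.4 and 20.2 (0.52 ± 0.16, adjusted p = 0.0187). Its day 6 call was lost without auxin replicate 2 or control replicate 1 or 2 (adjusted p = 0.0546 to 0.201). After washout on day 4 both were lower than day 6 auxin, Igf2r at 140.1 and 131 CPM (-0.42 ± 0.13, adjusted p = 0.0198, lost without day 6 auxin replicate 2 or washout replicate 1 or 2, adjusted p = 0.0512 to 0.143) and Airn at 13.4 and 10.996 CPM (-0.57 ± 0.16, adjusted p = 0.0112, lost without day 6 auxin replicate 2 or washout replicate 2, adjusted p = 0.131 to 0.137).

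Nnat, which encodes the membrane proteolipid neuronatin, fell late with auxin. It was 57.0 and 58.0 against 30.2 and 32.7 CPM on day 4 (-0.88 ± 0.10, adjusted p = 4.63e-06). On day 6 it was 99.9 and 108 against 47.8 and 45.3 CPM (-1.17 ± 0.10, adjusted p = 1.05e-07). On day 2 it was 12.48 and 13.7 against 17.7 and 15.0 CPM (0.33 ± 0.11, adjusted p = 0.0420), higher, a call lost with the block (0.0528) and without auxin replicate 1 or control replicate 1 or 2 (adjusted p = 0.0881 to 0.293). In the day 4 washout it was 64.0 and 54.2 CPM, below day 6 controls (-0.81 ± 0.10, adjusted p = 7.94e-06) and above day 6 auxin (0.36 ± 0.10, adjusted p = 0.00850). The latter did not pass without day 6 auxin replicate 2 or washout replicate 1 (adjusted p = 0.0827 to 0.142). Blcap, the gene in whose intron Nnat lies, was called on none of the 3 days (day 6 0.10 ± 0.066, adjusted p = 0.300).

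Peg13, a noncoding RNA within an intron of Trappc9, fell on all 3 days. It was 11.9 and 12.8 against 8.03 and 9.43 CPM on day 2 (-0.48 ± 0.088, adjusted p = 0.00101) and 21.7 and 19.8 against 16.3 and 16.2 on day 4 (-0.36 ± 0.083, adjusted p = 0.00426, lost without control replicate 1, adjusted p = 0.0752) and 37.6 and 36.6 against 19.6 and 18.3 on day 6 (-0.98 ± 0.082, adjusted p = 1.01e-07). Washout on day 4 gave 30.1 and 29.9 CPM, above day 6 auxin (0.68 ± 0.082, adjusted p = 8.52e-06) and below day 6 controls (-0.30 ± 0.080, adjusted p = 0.00869, lost without day 6 control replicate 1 or washout replicate 2, adjusted p = 0.0616 to 0.0633). Trappc9, a vesicle-tethering complex gene, was 33.7 and 34.6 against 24.9 and 26.7 CPM on day 2 (-0.39 ± 0.074, adjusted p = 0.00127). The day 6 values were 28.9 and 31.2 against 25.8 and 23.2 (-0.31 ± 0.074, adjusted p = 0.00470, lost without auxin replicate 2 or control replicate 2, adjusted p = 0.0777 to 0.0972). It was 29.7 and 29.9 CPM after washout on day 4 (0.30 ± 0.075, adjusted p = 0.00491 against day 6 auxin, lost without day 6 auxin replicate 2, adjusted p = 0.0997).

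Inpp5f, a phosphoinositide phosphatase gene, was lower with auxin and after washout. It was 69.4 and 68.9 against 55.8 and 53.4 CPM on day 4 (-0.35 ± 0.075, adjusted p = 0.00268). Day 6 gave 74.6 and 74.3 against 49.7 and 50.4 CPM (-0.58 ± 0.076, adjusted p = 1.51e-05). The day 2 values were 72.5 and 72.8 against 53.6 and 66.1 CPM (-0.27 ± 0.075, adjusted p = 0.0209). The call was lost without auxin replicate 1 or control replicate 1 or 2 (adjusted p = 0.0688 to 0.0868). The day 4 washout libraries held 45.4 and 45.6 CPM, lower than day 6 controls (-0.70 ± 0.076, adjusted p = 2.61e-06), with no call against day 6 auxin (-0.12 ± 0.076, adjusted p = 0.258). The day 6 washout libraries held 46.6 and 46.8 CPM.

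Gnas, which encodes the stimulatory G protein alpha subunit, was 3.80 and 5.33 against 7.83 and 8.86 CPM on day 2 (0.88 ± 0.22, adjusted p = 0.00958, lost without control replicate 1, adjusted p = 0.138). It did not pass on day 4 (-0.49 ± 0.21, adjusted p = 0.101) or day 6 (0.074 ± 0.21, adjusted p = 0.839). The day 4 washout libraries held 18.2 and 13.8 CPM, above day 6 auxin at 8.11 and 6.09 (1.19 ± 0.21, adjusted p = 0.000333) and day 6 controls at 6.96 and 6.47 (1.26 ± 0.21, adjusted p = 0.000168). Nespas, the antisense RNA of that domain, was at 1.79 and 1.89 against 1.36 and 1.08 CPM on day 4 (-0.61 ± 0.19, adjusted p = 0.0310, lost without auxin replicate 2 or control replicate 1 or 2, adjusted p = 0.0897 to 0.241), and at 1.19 and 1.09 CPM after washout on day 4, below day 6 auxin (-1.04 ± 0.20, adjusted p = 0.000616) and day 6 controls (-0.83 ± 0.20, adjusted p = 0.00352). Gnas and Nespas share 22 and 38.5% of their exonic bases with other annotated genes, so the counts of either may be incomplete.

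Of the remaining single genes, Slc38a4, an amino acid transporter, was 378 and 372 against 446 and 459 CPM on day 6 (0.26 ± 0.056, adjusted p = 0.00201) and 374 and 361 against 301 and 335 CPM on day 2 (-0.20 ± 0.056, adjusted p = 0.0230, lost without control replicate 1, adjusted p = 0.151). It was 393 and 406 CPM after washout on day 4 (-0.16 ± 0.056, adjusted p = 0.0368 against day 6 auxin, lost without day 6 auxin replicate 1 or 2 or washout replicate 1 or 2, adjusted p = 0.0938 to 0.175). Zrsr1, a splicing factor gene, was 38.9 and 39.4 against 51.9 and 47.5 CPM on day 2 (0.36 ± 0.067, adjusted p = 0.00113). Nap1l5, of the nucleosome assembly protein family, was 7.57 and 7.87 against 10.8 and 8.67 CPM on day 2 (0.35 ± 0.11, adjusted p = 0.0432) and 4.47 and 4.00 against 5.32 and 5.55 CPM on day 4 (0.36 ± 0.12, adjusted p = 0.0444). Both calls were lost with the block (0.0536 and 0.0524), the first without auxin replicate 1 or control replicate 1 or 2 (adjusted p = 0.155 to 0.424) and the second without auxin replicate 1 or 2 or control replicate 1 or 2 (adjusted p = 0.0723 to 0.291). It was 8.27 and 8.17 CPM after washout on day 4 (0.40 ± 0.11, adjusted p = 0.0138 against day 6 controls, lost without day 6 control replicate 1 or washout replicate 1 or 2, adjusted p = 0.0514 to 0.137).

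Among the auxin and washout comparisons, H13 was called in both washout comparisons and in no other. It was 76.0 and 74.8 CPM after washout on day 4 against 56.5 and 59.0 in day 6 controls (0.39 ± 0.075, adjusted p = 0.000632) and 57.0 and 54.4 with auxin (0.46 ± 0.075, adjusted p = 0.000181). Mcts2, a retrogene in an intron of H13, was 28.4 and 27.6 CPM after washout on day 4 against 23.3 and 22.3 with auxin (0.31 ± 0.094, adjusted p = 0.0167, lost without day 6 auxin replicate 2 or washout replicate 1, adjusted p = 0.0921 to 0.131). Rasgrf1, a Ras exchange factor gene, was below 1 CPM in every library; its day 4 call (1.40 ± 0.42, adjusted p = 0.0225) was lost without auxin replicate 1 or control replicate 1 or 2 (adjusted p = 0.113 to 0.153). Impact and Commd1 were called in no auxin or washout comparison.

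In all, the day 4 washout libraries differed from day 6 auxin in 27 of 46 members (17 higher, 10 lower), where 34.6% of all genes were called, and from day 6 controls in 21 (7 higher, 14 lower), where 33.9% were called. Regardless of sign, the median difference from day 6 controls was smaller over members (0.222) than over all genes (0.320). From day 6 auxin it was 0.330 over members and 0.324 over all genes. The count against day 6 controls was 13 without washout replicate 2 and 11 without control replicate 1, and the count against day 6 auxin was 18 to 23 with 1 library left out. The comparisons share the washout libraries. The auxin effect itself differed between day 4 and day 2 in 12 members (4 higher, 8 lower; 9.9% of all genes called) and between day 6 and day 4 in 8 (5 higher, 3 lower; 4.24% of all genes called). The day 4 against day 2 count was 7 without day 2 control replicate 1 or day 4 control replicate 2, and 22 without day 2 auxin replicate 2.

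The effect of auxin on day 4 was also set against the effect at 96 h in ES cells, with 1.23% of all genes called. Plagl1 (-1.91 ± 0.32, adjusted p = 0.00688) and Grb10 (1.10 ± 0.22, adjusted p = 0.0211) differed. The Plagl1 call was lost without day 4 auxin replicate 1 (adjusted p = 0.0501) and the Grb10 call without day 4 auxin replicate 1 or 2 or day 4 control replicate 1 or 2 (adjusted p = 0.0858 to 0.129); without 0 h ES replicate 2, 5 members were called.

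Other genes of the same biology were read from lists. Of 33 other imprinted genes tested, 6 rose and 4 fell on day 2, 6 rose and 9 fell on day 4, and 6 rose and 10 fell on day 6, where 18.3, 23.5 and 29.2% of all genes were called on these days. The 4 with the smallest p on day 6 were Ddc (above), Th, the tyrosine hydroxylase gene (-5.35 ± 0.53, adjusted p = 7.04e-07), Ampd3, an AMP deaminase gene (1.47 ± 0.15, adjusted p = 1.59e-06), and Dhcr7, of cholesterol synthesis (-0.60 ± 0.063, adjusted p = 1.72e-06). Of 16 genes listed for imprint maintenance, Tet1 and Tet2 included, 2, 4 and 4 rose and 1 fell on each of the 3 days, against the same 18.3, 23.5 and 29.2% of all genes. Among them Dppa3, which protects maternal methylation in the early embryo, was higher with auxin on day 2 (1.98 ± 0.13, adjusted p = 2.31e-08), day 4 (1.18 ± 0.11, adjusted p = 8.94e-07) and day 6 (1.84 ± 0.12, adjusted p = 3.92e-09), and Dnmt3l, the cofactor of de novo methylation, was higher on day 6 (0.70 ± 0.073, adjusted p = 1.25e-06). Uhrf1 of the same list went the other way. It was 392 and 382 CPM in day 4 controls against 287 and 312 with auxin, and 314 and 313 against 233 and 229 CPM on day 6. Of 12 genes of IGF2 signalling, 4, 2 and 1 rose and 1, 6 and 5 fell on the 3 days, again beside 18.3, 23.5 and 29.2% of all genes. These included the binding proteins Igfbp5 (-1.24 ± 0.10, adjusted p = 8.19e-08) and Igfbp4 (-1.39 ± 0.061, adjusted p = 9.99e-11) and the adaptor Irs1 (-1.76 ± 0.22, adjusted p = 9.09e-06), all lower on day 6.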

How the data were processed

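RNA-seq of 24 libraries was read from 1 table of read counts per gene deposited by the authors. The counts are raw; STAR, HTSeq, edgeR and build mm10 are named in the submitters' processing notes, with no versions, and the strand setting is not given in the sources used here. In each library 59.6 to 78.0% of counts from 1 to 20 were even, so halved counts were tried as an alternative. The table's 1 unnamed line was dropped. Groups were taken from the sample titles.

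Genes were filtered with filterByExpr (minimum count 10, minimum total 15), scaled by TMM and tested with the quasi-likelihood test of edgeR 4.0.16 (R 4.3.3), with Benjamini-Hochberg adjustment over all genes of a fit and a threshold of 0.05. ES comparisons were fitted on the 8 ES libraries (20361 genes), comparisons within differentiation on 16 (22587 genes) and comparisons across both on all 24 (23831 genes). Alternatives were DESeq2 1.42.0, RLE scaling, no filter, a replicate block, other sets of libraries, halved counts and leaving out each library. CPM are counts over the TMM-scaled library size. Coordinates and exonic lengths come from GENCODE vM21 on mm10, and promoter windows from RefSeq GRCm38.p6. Same-numbered ES libraries deviated together, so the block is given beside the auxin results in ES cells. To see this, the log2 difference between the 2 replicates of a group was correlated over genes between groups. The correlations were 0.189 to 0.772 over 6 pairs of ES groups.

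The members, the other gene lists and the markers were chosen with earlier results of these data known. Every member is accounted for. Values per library are given for Igf2, H19, Dlk1, Meg3, Peg3, Grb10, Cdkn1c, Kcnq1ot1, Snrpn, Igf2r and Airn, and for each member past the threshold in an auxin or washout comparison if its mean log2 CPM was 1 or more; of the other lists, up to 4 genes with the smallest p are named. The fits were tested on simulated counts: on day 4, 8 of 22033 unchanged genes were called and no changed gene had the wrong sign.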

Additional observations from a re-analysis of the deposited data

Results flagged for a closer look

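The auxin effect differed between stages in 22 results on members, by a test of the difference itself (edgeR's quasi-likelihood test with Benjamini-Hochberg adjustment; log2 scale). Each difference is the auxin effect at the later stage minus that at the earlier one, both against untreated libraries of their own stage. Marker sums of ES and neural progenitor cells also differed between auxin and control on days 4 and 6, and their part in these differences was not tested.

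From day 2 to day 4, the effect became more negative for Plagl1 (-2.21, adjusted p = 5.22e-07), Peg12 (-1.90, 4.16e-05), H19 (-1.72, 5.87e-08), Gnas (-1.37, 0.00762), Nnat (-1.21, 5.17e-05), Igf2 (-1.16, 4.95e-07), Usp29 (-0.78, 0.0259) and Peg3 (-0.69, 0.0301). It became more positive for Asb4 (0.68, 0.00190), Trappc9 (0.43, 0.0152), Rian (0.37, 0.0364) and Slc38a4 (0.34, 0.0113). Igf2 and Nnat were called higher with auxin on day 2 and lower on day 4. Both day 2 calls depended on single libraries, and that of Nnat was lost with the block, as given above. Leaving out 1 library ended the calls of Gnas (day 2 control replicate 1 or day 4 control replicate 2, adjusted p = 0.0533 to 0.0563), Peg3 (each day 2 control, day 4 control and day 4 auxin library, adjusted p = 0.0671 to 0.106), Rian (the same 6 libraries, 0.0688 to 0.123), Slc38a4 (day 2 control replicate 1 or day 4 auxin replicate 1 or day 4 control replicate 1, adjusted p = 0.0530 to 0.0597), Trappc9 (day 2 control replicate 2 or day 4 auxin replicate 2 or day 4 control replicate 1 or 2, adjusted p = 0.0553 to 0.0699) and Usp29 (day 2 control replicate 1 or day 4 auxin replicate 1 or 2 or day 4 control replicate 1 or 2, adjusted p = 0.0579 to 0.125).

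From day 4 to day 6, it became more positive for Phlda2 (1.66, adjusted p = 0.00810), Plagl1 (1.202, 0.000329), Peg10 (0.79, 0.00223), Grb10 (0.74, 0.000227) and H19 (0.44, 0.00939), and more negative for Asb4 (-1.25, 2.48e-05), Magel2 (-1.14, 0.0175) and Peg13 (-0.62, 0.00476). Asb4 was called higher with auxin on day 4 and lower on day 6. The day 6 call depended on single libraries and was lost with the block, as given above. Leaving out 1 library ended the calls of H19 (day 4 auxin replicate 2 or day 4 control replicate 2 or day 6 auxin replicate 2, adjusted p = 0.0509 to 0.0616), Magel2 (day 4 auxin replicate 2 or day 4 control replicate 2 or day 6 auxin replicate 2 or day 6 control replicate 2, adjusted p = 0.0677 to 0.125) and Phlda2 (day 6 auxin replicate 1 or day 6 control replicate 1, adjusted p = 0.0545 to 0.0658).

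Set against 96 h of auxin in ES cells, the day 4 effect was more negative for Plagl1 (-1.91, adjusted p = 0.00688) and more positive for Grb10 (1.10, 0.0211). Both calls were lost without 1 day 4 library, Plagl1 without day 4 auxin replicate 1 (adjusted p = 0.0501) and Grb10 without day 4 auxin replicate 1 or 2 or day 4 control replicate 1 or 2 (adjusted p = 0.0858 to 0.129).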

How the results depend on the processing

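No alternative reversed the direction of any of the 210 member results that passed. Over 2188 alternative values, 1772 stayed past the threshold and 416 did not. Counts halved, DESeq2 and RLE scaling each ended at most 2 of 210 calls; without a filter on low counts 10 were lost. Leaving out 1 library ended 235 of 928. Fitting all 24 libraries together, which takes the spread partly from the ES replicates, ended 144 of 194 calls. There the ES comparisons at 24, 48 and 96 h had 1, 3 and 8 members called, day 4 against day 2 controls 22, day 6 against day 4 controls 6, auxin on days 2, 4 and 6 1, 4 and 7, day 4 washout 5 against day 6 auxin and 4 against day 6 controls, and the differences of the auxin effect 1 (day 4 minus day 2) and 0 (day 6 minus day 4). With no filter, the ES comparisons at 48 and 96 h had 1 and 2, day 6 minus day 4 had 15 and day 4 minus 96 h in ES cells had 6. Beside these counts, the share of all genes is given only for auxin on days 2, 4 and 6 in the fit of all 24 libraries (1.31, 3.37 and 6.56%). The other counts of these 2 alternatives cannot be read as particular to the members. Fits of only the groups compared gave 0 for untreated day 2 against ES cells and 0 for day 4 minus 96 h in ES cells, with fewer libraries to estimate the spread, and ended all 16 member calls. With the replicate block, which pairs the same-numbered libraries, 4 members were called at 96 h in ES cells. In differentiation the numbers do not pair the libraries. Correlations of the replicate difference between groups ran from -0.241 to 0.204 over 28 pairs of groups, with 2 above 0.1. The block ended 7 member calls over all comparisons.

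Leaving out 1 library at a time gave these ranges of members called: 0 to 0 in each ES comparison, 7 to 17 for untreated day 2 against ES cells, 27 to 29 for day 4 against day 2, 17 to 20 for day 6 against day 4, 12 to 27, 14 to 16 and 18 to 20 for auxin on days 2, 4 and 6, 18 to 23 for day 4 washout against day 6 auxin and 11 to 17 against day 6 controls, 7 to 22 for day 4 minus day 2, 6 to 9 for day 6 minus day 4, and 0 to 5 for day 4 minus 96 h in ES cells. With 2 libraries a group, the arm left with 1 library is assumed to vary like the other groups. Simulated counts at the spread of these libraries held changed genes above a mean log2 CPM of 1. Of their 2-fold changes, 99% were found on day 4 of differentiation against 1% at 96 h in ES cells.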
